A study of Homo sapiens with 3 samples.

Results

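Polyamine synthesis and its control were followed through 8 genes: the enzymes ODC1, AMD1, SRM and SMS, the catabolic enzyme SAT1, the antizymes OAZ1 and OAZ2, and the antizyme inhibitor AZIN1. Their probe sets were taken by gene symbol, which gave 1 probe set for each gene, 8 of the 18417 genes that the arrays name with a probe set of 1 symbol. No member shared a probe set with another gene, and all 8 passed the filter on low values. The RNA came from H9, a widely used line of human embryonic stem cells, grown under pluripotent conditions. The 3 samples were polysome-bound RNA, polysome-unbound RNA and total RNA, with no treatment or genetic change named in the labels. Each was hybridised to 1 Affymetrix whole-transcript gene array, so no difference below has a replicate check and no p-value, SD or interval is given. In bulk RNA of this kind, fewer cells that use a gene and less RNA per cell cannot be told apart.

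Polyamines (putrescine, spermidine and spermine) are small cations that bind nucleic acids and that growing cells need in quantity. ODC1, ornithine decarboxylase, makes putrescine, and AMD1, adenosylmethionine decarboxylase, makes the aminopropyl donor that SRM (spermidine synthase) and SMS (spermine synthase) use. SAT1 acetylates spermidine and spermine for export or breakdown. Much of the control lies in translation: full-length antizyme is made only when ribosomes slip into another frame at the end of a short first reading frame, a step that polyamines favour, and antizyme then binds ODC1 and leads it to the proteasome. AZIN1, a relative of ODC1 without enzyme activity, sequesters antizyme. The AMD1 mRNA carries a short upstream reading frame on which ribosomes stall when polyamines are plentiful, and the ODC1 mRNA has a long structured leader. The probe sets measure RNA and do not see which frame is read.

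Parts of these leaders lie in the RefSeq promoter windows (build GRCh38.p14), which were found for 7 of the 8 members and reach 50 bases past each annotated transcript start. The upstream reading frame of AMD1 is shown first because it is the translational control element that falls inside such a window. It lies at chr6:110874791-110874820 on the plus strand, and capitals mark the frame from its ATG to its stop codon. The frame has 6 codons before the stop and opens at base 12 or 13 of the leader, counted from 2 neighbouring starts among the 3 that RefSeq annotates for AMD1.
AMD1 upstream frame: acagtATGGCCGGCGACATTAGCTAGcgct
A complete reading frame of this kind, an ATG followed in frame by TAA, TAG or TGA, was present within the first 50 bases in 1 of 7 members, against 9.39% of 15842 protein-coding genes and 12.5% of all 27305 genes in the table. An ATG on its own was present in 2 of 7 members, AMD1 and OAZ2, against 43.3% of protein-coding genes. These counts are of letters on the transcript strand within the window only.

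The first 25 bases of the antizyme, ODC1 and SRM transcripts are given next because these members lie at the opposite ends of the polysome comparison. Capitals mark pyrimidines in an unbroken run from the first base, and ODC1 is shown from the outer of its 2 annotated starts. RPS21, a ribosomal protein gene picked after its values were seen, stands for mRNAs that begin with a terminal oligopyrimidine tract, the leader motif that ties translation to growth signalling.
OAZ1, chr19:2269486-2269510, plus strand: agcatctataaaggcgggcggcggc
OAZ2, chr15:64703257-64703281, minus strand: atgcagatgaggcactcgggggcgg
ODC1, chr2:10448303-10448327, minus strand: gtcagtccctcctgtagccgccgcc
SRM, chr1:11059994-11060018, minus strand: gctggtcccgttgtgctgcggcgcc
RPS21, chr20:62387103-62387127, plus strand: CCTTTCTCTCTCgcgcgcggtgtgg
A C at the first base followed by at least 4 pyrimidines was found at no annotated start of the 7 members. It was found in 47 of 64 cytosolic ribosomal protein genes (73.4%), in 6.24% of protein-coding genes and in 5.14% of all genes in the table, so 0 of 7 is near the background.

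The arrays differed in overall level. Background was set per array from 462 genes of specialised tissues (receptors for smell and taste, defensins, keratin-associated proteins), at their 95th percentile. It was 4.39 in polysome-bound RNA, 3.56 in polysome-unbound RNA and 3.76 in total RNA on the log2 scale. Among the 12063 genes that passed the filter on low values, the median of the bound array was 1.26 above that of the unbound array and 1.03 above that of total RNA, and the unbound median was 0.23 below that of total RNA. A relative difference below is a log2 difference minus this offset, and "as deposited" marks a difference with no such step. Of the pluripotency markers, 10 of 10 measured genes were above background on all 3 arrays, among them LIN28A and SOX2. Of all 18417 genes, 65.0% were above it in bound, 63.2% in unbound and 63.6% in total RNA. POU5F1 and NANOG have no probe set of 1 symbol and were not measured here.

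Of the 8 members, those at the ends of the bound against unbound comparison were the antizymes on one side and ODC1 and SRM on the other. OAZ2 was 2.37-fold higher in polysome-bound than in unbound RNA relative to the offset, and OAZ1 was 1.64-fold higher. ODC1 was 2.92-fold lower and SRM 2.21-fold lower. The low place of ODC1 depended on how the arrays were scaled. OAZ2 was at least 2-fold higher under all 4 scalings tried and SRM at least 2-fold lower under 3 of them. As deposited, which is 1 of the 4, 61.4% of all genes past the filter were at least 2-fold higher. With centring 6.35% were 2-fold higher and 9.91% 2-fold lower. With 1 array per source these are descriptions of the arrays.

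**Figure D1:**
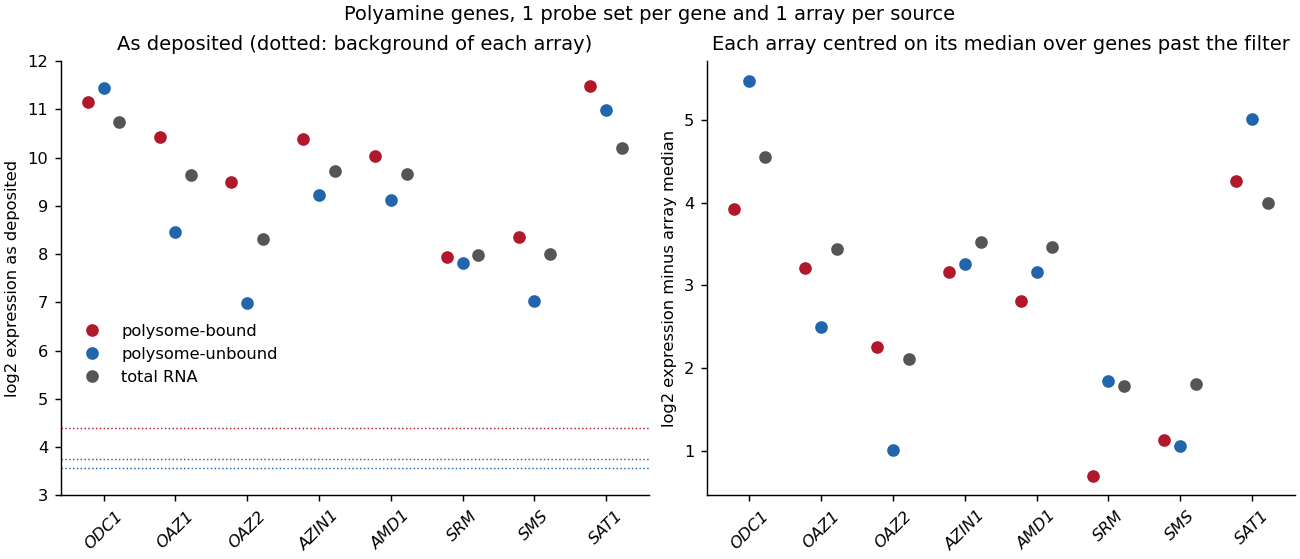
Log2 expression of the 8 members in polysome-bound, polysome-unbound and total RNA (1 probe set and 1 array per point), as deposited on the left and minus each array's median over the genes past the filter on the right. Dotted lines are the background of each array, and all points lie well above them. OAZ1 and OAZ2 are lowest in unbound RNA in both panels, and ODC1 is highest there.

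The antizymes bind ODC1 and send it to degradation. OAZ2 had log2 levels of 9.49 in polysome-bound, 6.98 in polysome-unbound and 8.31 in total RNA. OAZ1, the major antizyme of most tissues, had 10.44 in bound, 8.46 in unbound and 9.64 in total RNA. Both were highest in bound and lowest in unbound RNA as deposited, and unbound RNA remained the lowest of the 3 after centring. The bound minus unbound difference of OAZ2 was 2.51 as deposited, or 1.24 relative to the offset, above 97.0% of genes past the filter. That of OAZ1 was 1.98 as deposited, or 0.71 relative to the offset, above 86.7% of genes. OAZ3, the testis antizyme, had 3.86, 3.25 and 3.44 in bound, unbound and total RNA, below background on each array, so no difference is given for it.

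ODC1 catalyses the first step and is the target of the antizymes. Its level was 11.15 in polysome-bound, 11.44 in polysome-unbound and 10.75 in total RNA. It was the only member that was lower in bound than in unbound RNA as deposited, by -0.28, which became -1.55 relative to the offset, with 4.03% of genes lower. ODC1 lies near the bright end of the arrays, where bound and unbound arrays differed less for genes in general: a lowess curve put the bound minus unbound difference at 0.28 at the level of ODC1 and at 1.31 at the level of OAZ2. With that curve removed ODC1 was at -0.57, and after quantile normalization at -0.23, neither of them 2-fold. AZIN1, which releases ODC1 from antizyme, had 10.39 in bound, 9.22 in unbound and 9.72 in total RNA. Its relative difference of bound minus unbound was -0.09, in the middle of all genes, with 48.5% of genes lower. It was positive under the other scalings, at 1.17 as deposited, 0.47 with quantile normalization and 0.20 with lowess.

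Centring takes the same offset from every gene. The difference between the differences of a pair of genes, and the order of the members, are therefore the same as deposited. For an antizyme and its target this difference kept its sign with centring, quantile normalization and lowess. For OAZ2 over ODC1 it was 2.79 with centring, and as deposited, 1.69 with quantile normalization and 1.76 with lowess. For OAZ1 over ODC1 it was 2.26, 1.41 and 1.46 in the same order. OAZ2 ranked first and OAZ1 second of the 8 members with centring, and so as deposited, with quantile normalization and with lowess. The last place went to ODC1 with centring and as deposited, and to SRM with quantile normalization and lowess.

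**Figure D2:**
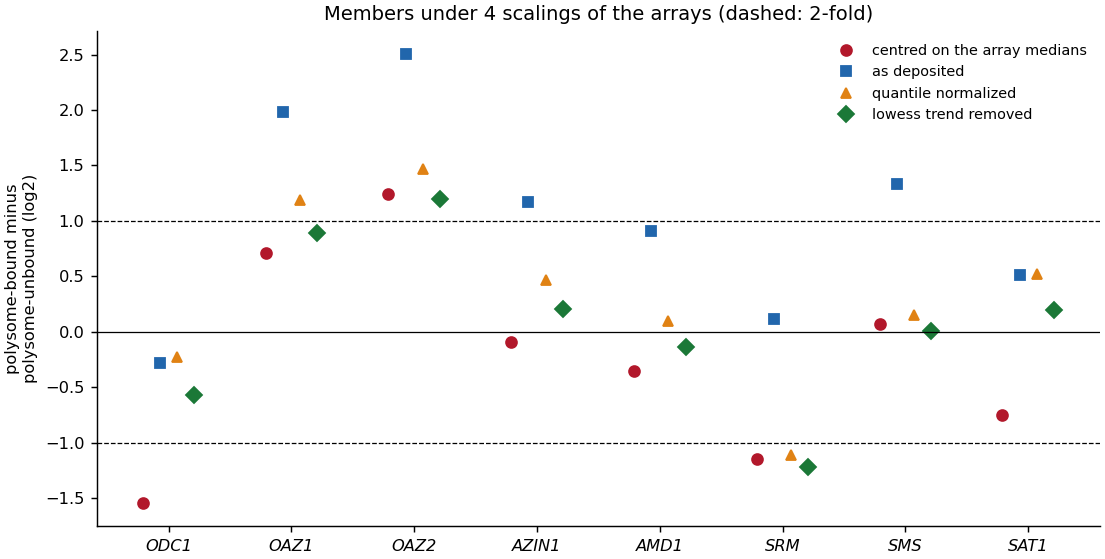
Bound minus unbound difference (log2) of each member with arrays centred on their medians, as deposited, quantile normalized, or with the trend of the difference on level removed by lowess; dashed lines mark 2-fold. OAZ2 is above 1 under each scaling, SRM is below -1 in all but the deposited values (0.12), and ODC1 is below -1 with centring alone.

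AMD1, SRM and SMS make spermidine and spermine. SRM had 7.93 in polysome-bound, 7.81 in polysome-unbound and 7.98 in total RNA, nearly equal levels as deposited. Because most genes were higher on the bound array, its deposited difference of 0.12 over unbound RNA became -1.14 relative to the offset, -1.11 after quantile normalization and -1.21 after lowess. SMS, which acts on the product of SRM, had 8.36 in bound, 7.02 in unbound and 8.01 in total RNA. Its relative difference was 0.07. The gap between SMS and SRM was 1.22 with centring, and so as deposited, 1.26 with quantile normalization and 1.22 with lowess. AMD1 had 10.04 in bound, 9.13 in unbound and 9.67 in total RNA, which gave a relative difference of -0.36, with 33.2% of genes lower. Its sign changed with the scaling, from 0.91 as deposited and 0.10 with quantile normalization to -0.14 with lowess, and none of these values is 2-fold, so the mRNA with the upstream frame shown above was not called apart.

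SAT1 starts the breakdown of spermidine and spermine. Its level was 11.49 in polysome-bound, 10.98 in polysome-unbound and 10.20 in total RNA. The bound minus unbound difference was 0.51 as deposited, -0.75 relative to the offset, 0.53 with quantile normalization and 0.20 with lowess, so no direction holds for it. Both polysome pools were above total RNA for SAT1, as described below.

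By the 2-fold threshold on relative differences, 1 of 8 members (OAZ2) was higher in bound than in unbound RNA and 2 of 8 (ODC1 and SRM) were lower, against 6.35% and 9.91% of all genes past the filter. As deposited, 4 of 8 (OAZ1, OAZ2, AZIN1 and SMS) were at least 2-fold higher and 0 were lower, against 61.4% and 1.56% of all genes. The median relative difference was -0.23 over the members and -0.07 over all genes past the filter. The members lay on both sides of the median of all genes.

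**Figure D3:**
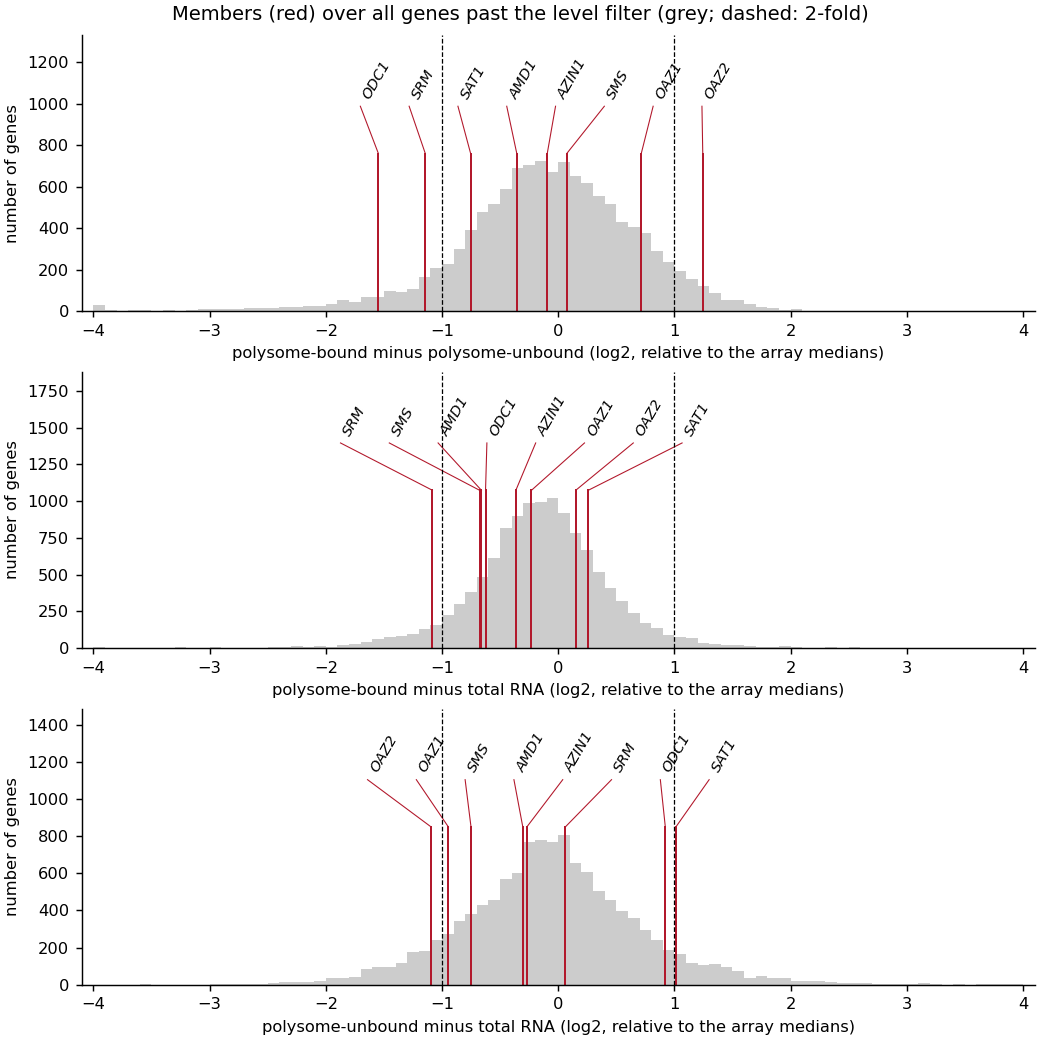
Relative difference (log2) of the 8 members (red lines, named) over the number of genes in bins of all 12063 genes past the level filter (grey; values beyond the axis are in the end bins) for bound minus unbound, bound minus total and unbound minus total RNA; dashed lines mark 2-fold. In the top panel ODC1 (-1.55) and SRM (-1.14) lie left of the lower line and OAZ2 (1.24) right of the upper one.

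Against total RNA, polysome-bound RNA differed less. Bound and total RNA were purified with different column kits, and the effect of the kit cannot be told apart from that of the source, here or for unbound RNA. SRM was lower in bound than in total RNA by a relative difference of -1.08 (-0.05 as deposited, -0.87 with quantile normalization and -0.92 with lowess). It was the only member 2-fold lower, 1 of 8 against 6.41% of genes, and 0 of 8 were 2-fold higher against 2.66% of genes. As deposited, 2 of 8, SAT1 (1.29) and OAZ2 (1.18), were 2-fold higher against 40.1% of genes, and 0 were 2-fold lower against 0.572%. SMS (-0.68), AMD1 (-0.66), ODC1 (-0.63), AZIN1 (-0.36) and OAZ1 (-0.23) had negative relative differences that were positive as deposited, and SAT1 (0.26) and OAZ2 (0.15) positive ones. SAT1 was at least 2-fold higher with quantile normalization (1.29) and lowess (1.05) as well as in the deposited values. With quantile normalization and lowess, in that order, ODC1 (0.30 and 0.19), AZIN1 (0.32 and 0.22) and OAZ1 (0.46 and 0.35) were positive. The order of the members from SAT1 at the top to SRM at the bottom was the same with centring, and so as deposited, with quantile normalization and with lowess.

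Polysome-unbound RNA set against total RNA held ODC1 and SAT1 at the top and the antizymes at the bottom. The order of the members was also the same with centring, and so as deposited, with quantile normalization and with lowess. This comparison shares an array with each of the other comparisons, so its values are not independent of them. SAT1 was higher in unbound than in total RNA by 1.01 relative to the offset (0.78 as deposited) and ODC1 by 0.92 (0.69 as deposited). OAZ2 was lower by -1.09 (-1.33 as deposited), OAZ1 by -0.94 (-1.18) and SMS by -0.75 (-0.98). AZIN1 (-0.27), AMD1 (-0.30) and SRM (0.06) were near 0. In relative terms 1 of 8 members was 2-fold higher, against 8.09% of genes, and 1 of 8 was 2-fold lower, against 9.96%. Neither call held with quantile normalization (SAT1 0.77, OAZ2 -0.92) or lowess (0.97 and -0.81). That of SAT1 was also lost with no filter (0.93), and that of OAZ2 with the filter at the 99th percentile (-0.996). As deposited 0 of 8 were 2-fold higher, against 5.42%, and 2 of 8 were 2-fold lower, against 16%.

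Cell type markers also differed between the pools and total RNA. Of 10 pluripotency markers, 0 had a positive relative difference for bound minus total RNA and 1 did for unbound minus total RNA. Their medians were -0.936 and -0.998, and 5 of 10 were at least 2-fold lower in each comparison. Over all 12063 genes past the filter, 4563 and 5491 were positive in these comparisons, with medians of -0.14 and -0.07. At least 2-fold lower were 6.41% and 9.96% of all genes. All 6 trophoblast and amnion markers past the filter had positive relative differences in both comparisons. The summed level of the 7 measured trophoblast and amnion markers, as deposited and on the log2 scale, was 10.40 in bound, 9.42 in unbound and 8.44 in total RNA, and CGA, a hormone subunit of trophoblast, was below background on all 3 arrays. Of 8 germ layer markers past the filter, 5 were positive for bound minus total RNA, led by TTR (3.22). These 5 lay at least 2.69 above background in bound RNA. EOMES (-0.84), SOX1 (-0.59) and FOXA2 (-0.54) were negative. They lay at most 0.38 above background on any array, so their sign says little. The summed level of the 10 measured germ layer markers as deposited was 10.17 in bound, 8.57 in unbound and 7.41 in total RNA. Fibroblast markers ran from LUM (1.53) to POSTN (-2.64) for bound minus total RNA, with 3 of 7 positive, and their summed level as deposited was 11.26 in bound, 9.17 in unbound and 11.31 in total RNA. These sums still hold the offsets between the arrays. The part of these differences in the members' values against total RNA was not tested.

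Other genes of the pathway were taken from lists chosen with earlier results of these data known. In the methionine cycle and salvage list, which supplies adenosylmethionine and recycles its by-product, 3 of 8 genes past the filter were 2-fold lower in bound than in unbound RNA in relative terms and 1 was 2-fold higher, against 9.91% and 6.35% of all genes. The list median was -0.17, against -0.07 over all genes. MAT2A, which makes the substrate of AMD1, had 9.35 in polysome-bound, 11.17 in polysome-unbound and 8.69 in total RNA. Its relative difference of bound minus unbound was -3.08, with -1.81 as deposited, -2.33 with quantile normalization and -2.58 with lowess, and its level in unbound RNA was 2.47 above total RNA as deposited. MAT2A was thus further to the unbound side than any of the 8 members with centring, and so as deposited, with quantile normalization and with lowess. AHCY, which clears adenosylhomocysteine, was at -1.79 (-0.53 as deposited) and MRI1 of methionine salvage at -1.42 (-0.16 as deposited). ADI1, the dioxygenase of that salvage route, was at 1.21 (2.47 as deposited), and MTAP, which splits the by-product of SRM and SMS, was at 0.18.

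Transport and catabolism followed no common direction. Of 6 polyamine and arginine transport genes past the filter, ATP13A2, a lysosomal polyamine exporter, was 2-fold higher in bound RNA (relative difference 1.48, at 1.47 to 2.75 under the 4 scalings). ATP13A3 (0.68), the vesicular transporter SLC18B1 (0.63) and the arginine transporter SLC7A1 (0.58) were on the same side. SLC3A2 was at -1.04, which was 0.22 as deposited. In this list 1 of 6 was 2-fold higher and 1 of 6 lower, against 6.35% and 9.91% of all genes. The list median was 0.60, against -0.07 over all genes. Among 4 other regulators and catabolic genes, 1 was 2-fold lower in bound RNA, against 9.91% of all genes. It was SAT2, a relative of SAT1 (-1.49, from -1.54 to -0.22 under the 4 scalings). The oxidases SMOX (0.01) and PAOX (-0.06) and the antizyme inhibitor AZIN2 (-0.07) had relative differences near 0. PAOX and AZIN2 lay near background, at most 0.70 and 0.56 above it on any array.

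Of the ornithine supply genes 0 of 3 were 2-fold higher or lower in bound than in unbound RNA, against 6.35% and 9.91% of all genes. So few genes cannot be told from these shares. The values were ARG2 0.15, OAT -0.14 and ALDH18A1 -0.23. OAT (-1.31 relative, -0.28 as deposited) and ALDH18A1 (-1.24 relative, -0.21 as deposited) were lower in bound than in total RNA. In relative terms 2 of 3 were 2-fold lower there, against 6.41% of all genes. Spermidine is also the donor for hypusine, the modified lysine of the translation factor eIF5A. Its enzymes DHPS (-0.76) and DOHH (-0.39) and the factor gene EIF5A2 (-0.56) were within 2-fold, each of them positive as deposited. DOHH and EIF5A2 lay near background, at most 0.39 and 0.79 above it on any array, so their differences say little. EIF5A was not measured here.

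**Figure D4:**
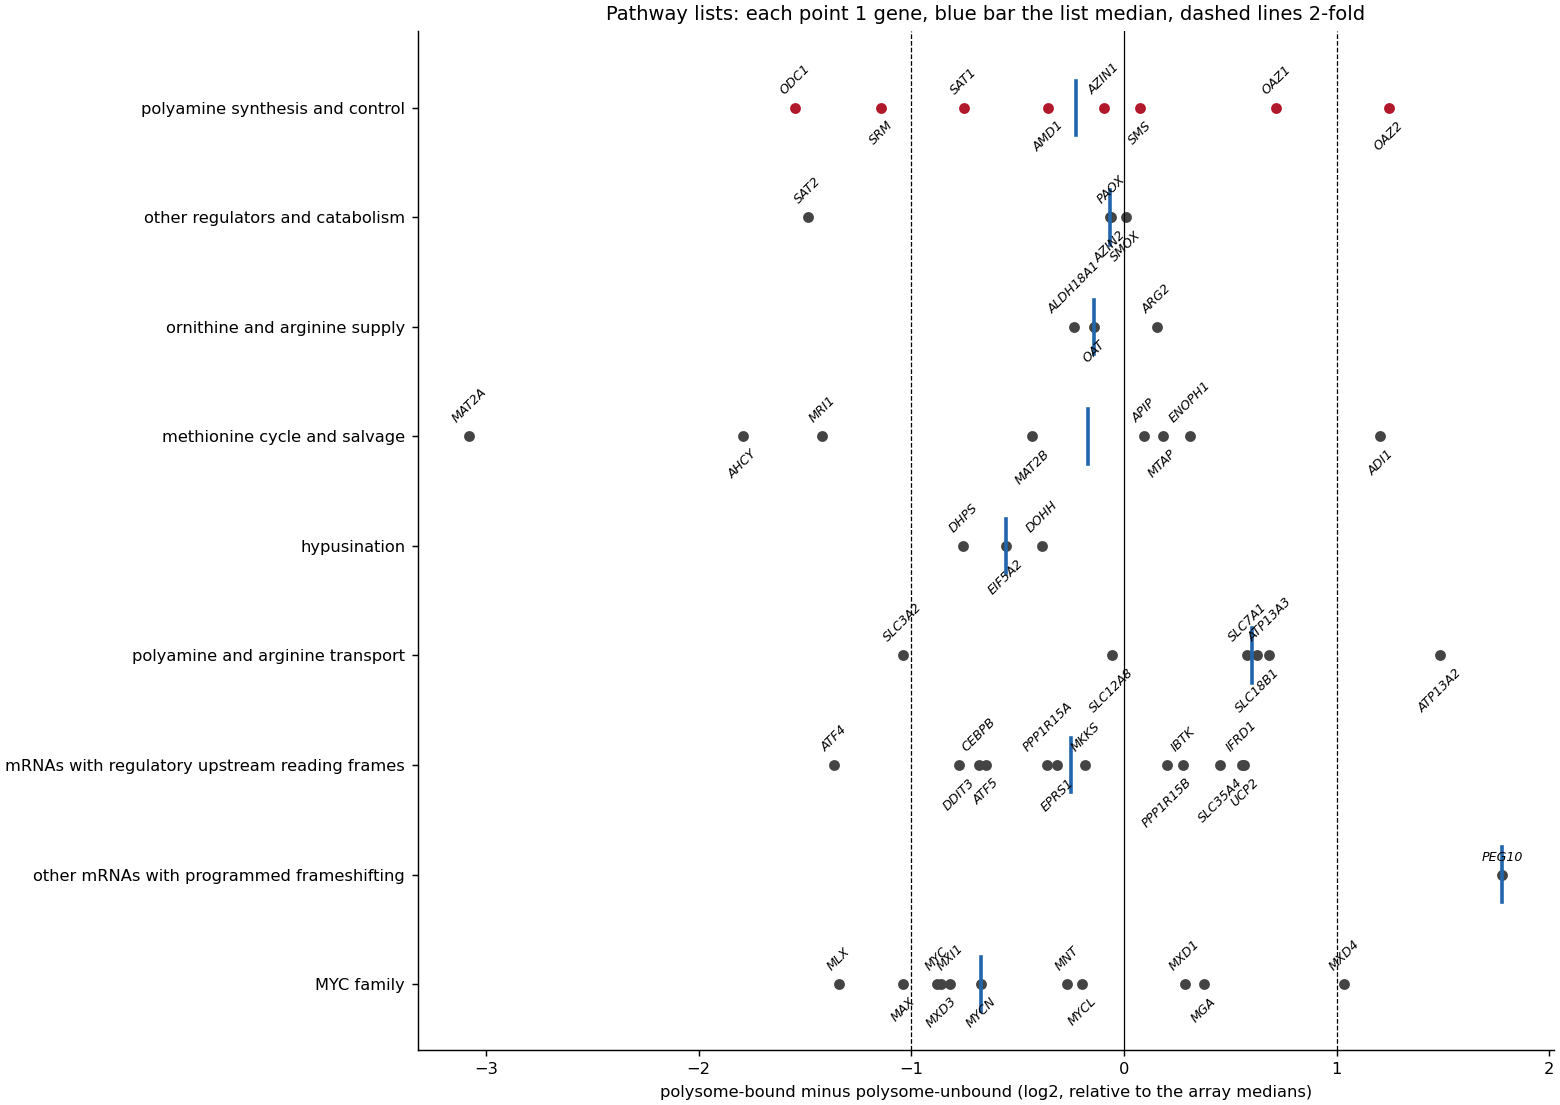
Relative difference of bound minus unbound RNA (log2) for the 8 members and for the genes past the filter in 8 related lists, each point 1 gene on 1 pair of arrays; blue bars are list medians and dashed lines mark 2-fold. MAT2A (-3.08) is the point furthest left and PEG10 (1.78) the one furthest right.

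Other mRNAs with unusual reading frames give the members a frame of comparison. PEG10, a retrotransposon-derived gene whose mRNA also needs a frameshift for its full product, had 10.17 in polysome-bound, 7.13 in polysome-unbound and 9.70 in total RNA. Its relative difference of bound minus unbound, 1.78, was on the same side as OAZ1 and OAZ2 and stayed between 1.78 and 3.04 under the 4 scalings. For bound minus total RNA PEG10 was at -0.56 (0.47 as deposited, 0.07 with quantile normalization and -0.008 with lowess). For unbound minus total RNA it was at -2.34 (-2.57 as deposited). RTL1, the other gene listed with PEG10, was below the filter. Of 12 mRNAs with regulatory upstream reading frames past the filter, 0 were 2-fold higher and 1 was 2-fold lower in bound RNA, against 6.35% and 9.91% of all genes. Their median relative difference was -0.25, against -0.07 over all genes. The gene that was lower was ATF4, a stress-response transcription factor, with 10.34 in bound, 10.44 in unbound and 9.60 in total RNA. Its relative difference was -1.36, with -0.10 as deposited, -0.56 with quantile normalization and -0.80 with lowess. AMD1 (-0.36) lay inside the range of this list, which ran from ATF4 to UCP2 (0.57).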

How the data were processed

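The deposited values are log2 expression per probe set. RMA in Partek 6.5 is named in the submitters' processing notes as the authors' method, which corrects background, normalizes and summarises probes. The value distributions of the 3 columns differ, which leaves their scaling unknown, and the decimals of the bound column show that a constant of 0.113 to 0.114 was probably added to it. The separation of polysomes and any pooling of cultures are not given in the labels. Precision is limited by the single array per group.

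Of 33297 probe sets, 19460 list 1 gene symbol in the platform annotation, 1754 list several and 12083 are not listed. Gene IDs of 19429 matched RefSeq (GRCh38.p14), which changed 0 symbols. For 769 genes with several probe sets the one with the highest mean was kept. Genes with a mean over the 3 arrays above 3.84 entered the comparisons; that level is the 95th percentile of this mean in the background genes. Each array was centred on its median over those genes, and 2-fold (1 on the log2 scale) was the threshold. Alternatives were other filters, as deposited, quantile normalization, lowess (fraction 0.3), the mean of probe sets, other thresholds and subtraction of the constant. Named genes were the 8 members, genes of the lists past the filter, and for each member the gene with the nearest values. The members and lists were chosen with earlier results of these data known. Calling was tried on simulated data with planted effects, a constant offset between arrays and an assumed noise. Those data held no trend with level, so the trial does not bear on calls that move with that trend. Software was matplotlib 3.10.9, pandas 2.3.3, numpy 2.4.6 and statsmodels 0.14.6 under Python 3.11.15.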

Additional observations from a re-analysis of the deposited data

How the results depend on the processing

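No paired analysis was possible because each group has 1 array. Counts are given as 2-fold higher and lower. With centring 766 and 1196 genes were apart for bound minus unbound, 321 and 773 for bound minus total, and 976 and 1201 for unbound minus total RNA, with 1 and 2, 0 and 1, and 1 and 1 of the members. As deposited the genes were 7404 and 188, 4835 and 69, and 654 and 1926, with 4 and 0, 2 and 0, and 0 and 2 members. With quantile normalization the genes were 1294 and 875, 389 and 410, and 884 and 1163 of 12002, in the same order of comparisons. The members were 2 and 1, 1 and 0, and 0 and 0. Lowess gave 769 and 1125, 389 and 444, and 1133 and 911 genes of 12063. Its members were 1 (OAZ2) and 1 (SRM) for bound minus unbound and 1 (SAT1) and 0 for bound minus total. For unbound minus total they were 0 and 0. At 1.5-fold the genes were 2130 and 2668, 989 and 2233, and 2111 and 2690, with 2 and 3 members for bound minus unbound, 0 and 4 for bound minus total, and 2 and 3 for unbound minus total. At 3-fold they were 102 and 468, 69 and 184, and 309 and 314, with 0 members in each comparison. For unbound minus total, no filter gave 0 and 2 members, with 834 and 1430 of 18417 genes. The filter at the 99th percentile gave 2 and 0 members, with 971 and 913 of 9097 genes. That filter left 0 members lower for bound minus total, with 541 genes lower. As deposited, SRM (0.12), SLC3A2 (0.22) and MAX (0.22) for bound minus unbound, and SLC3A2 (0.011) and MYC (0.029) for bound minus total, took the opposite sign to their centred calls. Subtracting the constant from the bound column cannot change a centred difference. Each of the 8 members has 1 probe set, so averaging probe sets could only shift the offset for them. Their calls stayed the same in both settings, which is therefore no check on them. The cause of these changes was not tested, beyond the offsets and the trend with level given above.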

Other observations

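MYC is a known activator of ODC1 and of other polyamine genes, and its family was read on the same arrays. Of 11 family genes past the filter 1 was 2-fold higher and 2 were 2-fold lower in bound than in unbound RNA in relative terms, against 6.35% and 9.91% of all genes. The family median was -0.67 (0.59 as deposited), against -0.07 over all genes (1.20 as deposited). The background genes had a median of 0.71 as deposited. In bound RNA the family lay from 0.40 (MXD3) to 3.38 (MGA) above background, with MYC at 0.86. The part of low signal in the family median was not tested. MXD4, which competes with MYC for its partner, was at 1.03, or 0.98 with lowess. MLX was at -1.34 and MAX, the partner of MYC, at -1.04. MYC itself had log2 levels of 5.25 in bound, 4.86 in unbound and 5.22 in total RNA, a relative difference of -0.88 for bound minus unbound. MYCN had 7.05, 6.46 and 6.69 in the same order, a relative difference of -0.67.

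The genes with the nearest values to each member, by Euclidean distance over the 3 centred arrays, were EIF2S3 for ODC1 (distance 0.20), CD99 for OAZ1 (0.10), HEPH for OAZ2 (0.13), SRSF4 for AZIN1 (0.15), TMEM14B for AMD1 (0.12), CDC27 for SRM (0.11), EPB41 for SMS (0.03) and PNRC2 for SAT1 (0.46). The distance includes the level, which also depends on the probes of each probe set. EIF2S3, a subunit of the factor that brings the initiator tRNA, had 11.19 in bound, 11.47 in unbound and 10.94 in total RNA, against 11.15, 11.44 and 10.75 for ODC1.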
